A study of Mus musculus with 5 samples.

Results

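The genes examined here were 45 mouse genes for heterogeneous nuclear ribonucleoproteins (hnRNPs) and other splicing factors, taken by symbol from a fixed list and looked up in the lists of ChIP-seq peaks of the study. All 45 were among the 21924 protein-coding genes of the GENCODE M21 annotation. They comprised 19 genes with an Hnrnp symbol, 5 hnRNP relatives (Ptbp1, Ptbp2, Syncrip, Pcbp1 and Pcbp2), 11 SR and SR-related genes (8 Srsf genes, Tra2a, Tra2b and Scaf4), 8 tissue-regulated splicing regulators (Rbfox1, Rbfox2, Rbm20, Rbm24, Celf1, Celf2, Mbnl1 and Mbnl2), and Tardbp and Snrpa1. The study examined where hnRNPA1, an RNA-binding protein, and ZHX1, which carries zinc fingers and homeoboxes, bind the genome in cardiac progenitor (CP) cells differentiated from 46C mouse embryonic stem cells. There were 3 groups of 1 library each: 46C-Ctrl cells with ZHX1 ChIP, 46C-Ctrl cells with hnRNPA1 ChIP, and Zhx1-KO cells with hnRNPA1 ChIP. The Zhx1-KO line was made in 46C cells with a pair of guide RNAs, at the transcription start and the transcription stop of Zhx1, and how many clones entered the ChIP is not given in the sources used here. The labels name no further treatment or day. An input of each line was not used here, and the knockout and the CP identity could not be checked from peak positions.

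HnRNPs are abundant nuclear proteins that coat newly made RNA and steer splice site choice, RNA export and decay, and several of them also associate with chromatin. SR proteins carry a domain rich in arginine and serine, bind exonic enhancers and often act on splicing in the opposite direction to hnRNPs of the A/B group. Members of both families commonly regulate the splicing of their own transcripts. In the heart, Rbm20, Rbm24, Rbfox, Celf and Mbnl proteins set the splicing of sarcomere and calcium handling genes.

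Each peak list gives positions on GRCm38 and 1 gene name per peak, with no height, read count or score. The 46C-Ctrl ZHX1 list held 23244 peaks, the 46C-Ctrl hnRNPA1 list 14662 and the Zhx1-KO hnRNPA1 list 51545. The depth behind a peak is unknown, so a longer list cannot be told apart from deeper reads or a looser threshold. With 1 library per group no difference between lists has a replicate check, and no test was made. Shares of the genes are therefore set beside the same share over all protein-coding genes of the same list. Shares of peaks carry Wilson 95% intervals, which cover counting error only and take the peaks as independent.

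The gene of the precipitated protein, Hnrnpa1, had no peak under its own name in any of the 3 lists. By position, it had 1 peak within the gene (chr15:103240432-103246692, plus strand), and that peak came from the Zhx1-KO hnRNPA1 list. The peak, chr15:103242997-103243346, had its centre in an intron, 2677 bp from the nearest annotated transcription start site (TSS), and 84 of its 350 bases were coding. Its deposited name was Gm5643, a pseudogene elsewhere in the genome. The ZHX1 and control hnRNPA1 lists held no peak within Hnrnpa1 and none within 2 kb of its TSS, and their nearest peaks lay 16693 and 62732 bp from the Zhx1-KO peak. The middle 300 bases of this peak, chr15:103243022-103243321, are shown because it is the only peak within the gene of the precipitated protein. Sequences are GRCm38 plus strand, with TAGGG (the letters of the RNA motif favoured by hnRNPA1, written as DNA) and CCAAT (the box bound by NF-Y) in capitals where either occurs on either strand. These bases held neither motif.
Hnrnpa1: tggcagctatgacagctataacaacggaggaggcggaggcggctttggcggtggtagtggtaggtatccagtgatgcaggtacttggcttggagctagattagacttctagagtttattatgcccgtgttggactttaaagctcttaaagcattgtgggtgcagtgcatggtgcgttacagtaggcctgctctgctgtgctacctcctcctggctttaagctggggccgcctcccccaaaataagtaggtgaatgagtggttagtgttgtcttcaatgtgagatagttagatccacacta

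Scaf4, an SR-related protein that binds the tail of RNA polymerase II, was the gene at which ZHX1 and hnRNPA1 peaks of control cells overlapped. The ZHX1 peak, chr16:90229502-90229729, lay wholly inside the control hnRNPA1 peak, chr16:90229450-90229889. Both were in coding sequence, 593 and 539 bp from a TSS inside the gene (chr16:90225680-90284503, minus strand), toward its 3′ end. Both carried the deposited name Sod1, the neighbouring gene for a superoxide dismutase, so neither counted for Scaf4 by name. No Zhx1-KO hnRNPA1 peak lay in Scaf4, and the nearest was 13713 bp from the control hnRNPA1 peak. The overlap, chr16:90229502-90229729, held 1 TAGGG, on the minus strand.
Scaf4: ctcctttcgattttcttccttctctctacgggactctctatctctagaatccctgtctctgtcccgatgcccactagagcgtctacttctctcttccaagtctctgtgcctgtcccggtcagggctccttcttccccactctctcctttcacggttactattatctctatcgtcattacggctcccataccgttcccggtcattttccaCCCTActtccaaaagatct

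The other overlaps were all between the ZHX1 list and the Zhx1-KO hnRNPA1 list, and they lay at Hnrnpf, Celf2 and Rbm24. Hnrnpf encodes a protein that binds G-rich RNA, and its ZHX1 peak (chr6:117924091-117924358) and Zhx1-KO peak (chr6:117923973-117924227) lay in its coding sequence, 523 and 399 bp downstream of a TSS inside the gene. Sequence words of both peaks occurred at a median of 5 places in the genome, and whether reads from other copies contributed was not tested. At Celf2, which encodes a regulator of alternative splicing in heart and brain, 1 overlap of 198 bp was in an intron, at chr2:7026423-7026620, and 1 of 49 bp was in untranslated sequence near the 3′ end of the gene, both in single-copy sequence. The overlap 36.4 kb upstream of Rbm24, a regulator of heart and muscle splicing, lay in repeated sequence, with a median copy number of 816 under the ZHX1 peak and 544 under the Zhx1-KO peak. The Hnrnpf overlap and the 198 bp Celf2 overlap are shown, as places within these genes where both proteins had a peak, in different lines. The 49 bp Celf2 overlap is not shown and held neither motif. The Celf2 stretch of 198 bp held 1 CCAAT and 1 TAGGG, the latter on the minus strand, and the Hnrnpf stretch held neither.
Hnrnpf: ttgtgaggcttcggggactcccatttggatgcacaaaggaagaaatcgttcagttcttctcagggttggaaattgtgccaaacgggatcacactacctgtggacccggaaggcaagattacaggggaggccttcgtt
Celf2: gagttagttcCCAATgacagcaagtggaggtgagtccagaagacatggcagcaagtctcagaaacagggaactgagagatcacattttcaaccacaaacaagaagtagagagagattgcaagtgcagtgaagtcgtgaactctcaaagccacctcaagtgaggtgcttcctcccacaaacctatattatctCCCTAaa

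Counted over all peaks that carried the genes' names, 4 of 73 ZHX1 peaks overlapped a Zhx1-KO hnRNPA1 peak by at least 1 bp (5.48%, interval 2.15 to 13.3), beside 4.42% of all ZHX1 peaks. In the other direction these were 4 of 154 Zhx1-KO peaks (2.60%, interval 1.01 to 6.49), beside 1.99% of all peaks of that list. Of the 73 ZHX1 peaks none overlapped a control hnRNPA1 peak, which allows a share of up to 4.11%, beside 2.60% of all ZHX1 peaks. The 32 hnRNPA1 peaks of control cells met no ZHX1 peak and no Zhx1-KO hnRNPA1 peak, which allows up to 9.38% for each, beside 4.12% and 4.41% of all peaks of that list. None of the 154 Zhx1-KO hnRNPA1 peaks overlapped a control hnRNPA1 peak, which allows up to 1.95%, beside 1.26% of all. The shares over these genes were thus within counting error of those over each whole list. The Scaf4 overlap is not among these counts, since it carried another name.

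For each named peak, the gap to the nearest peak of another list was taken, whatever gene that other peak was named for. The median gap from a control hnRNPA1 peak to the nearest Zhx1-KO hnRNPA1 peak was 19.2 kb over the 32 named peaks, with a smallest gap of 0.515 kb upstream of Rbm24, and it was 12.5 kb over all control hnRNPA1 peaks. From the 154 Zhx1-KO peaks to the nearest control hnRNPA1 peak the median gap was 77.8 kb, beside 50.9 kb over that whole list. The smallest of these gaps was 0.264 kb, upstream of Hnrnph1. A ZHX1 peak was nearer to a Zhx1-KO hnRNPA1 peak, with a median gap of 10.0 kb for the 73 named peaks and 12.9 kb for all ZHX1 peaks. The Zhx1-KO list is also the longest one, and a longer list gives shorter gaps.

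By deposited name, 20 of the 45 genes (44.4%) had a ZHX1 peak, beside 40.5% of all protein-coding genes. For hnRNPA1 in 46C-Ctrl cells the number was 14 (31.1%), beside 31.2%. In Zhx1-KO cells it was 30 (66.7%), beside 57.7%. For both control lists the share was close to the background. The 3 lists held 73, 32 and 154 peaks named for these genes. The map of peak counts shows that few genes held most of them: the 5 leading genes had 64.4% of the named ZHX1 peaks, 62.5% of the control hnRNPA1 peaks and 56.5% of the Zhx1-KO hnRNPA1 peaks.

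**Figure D1:**
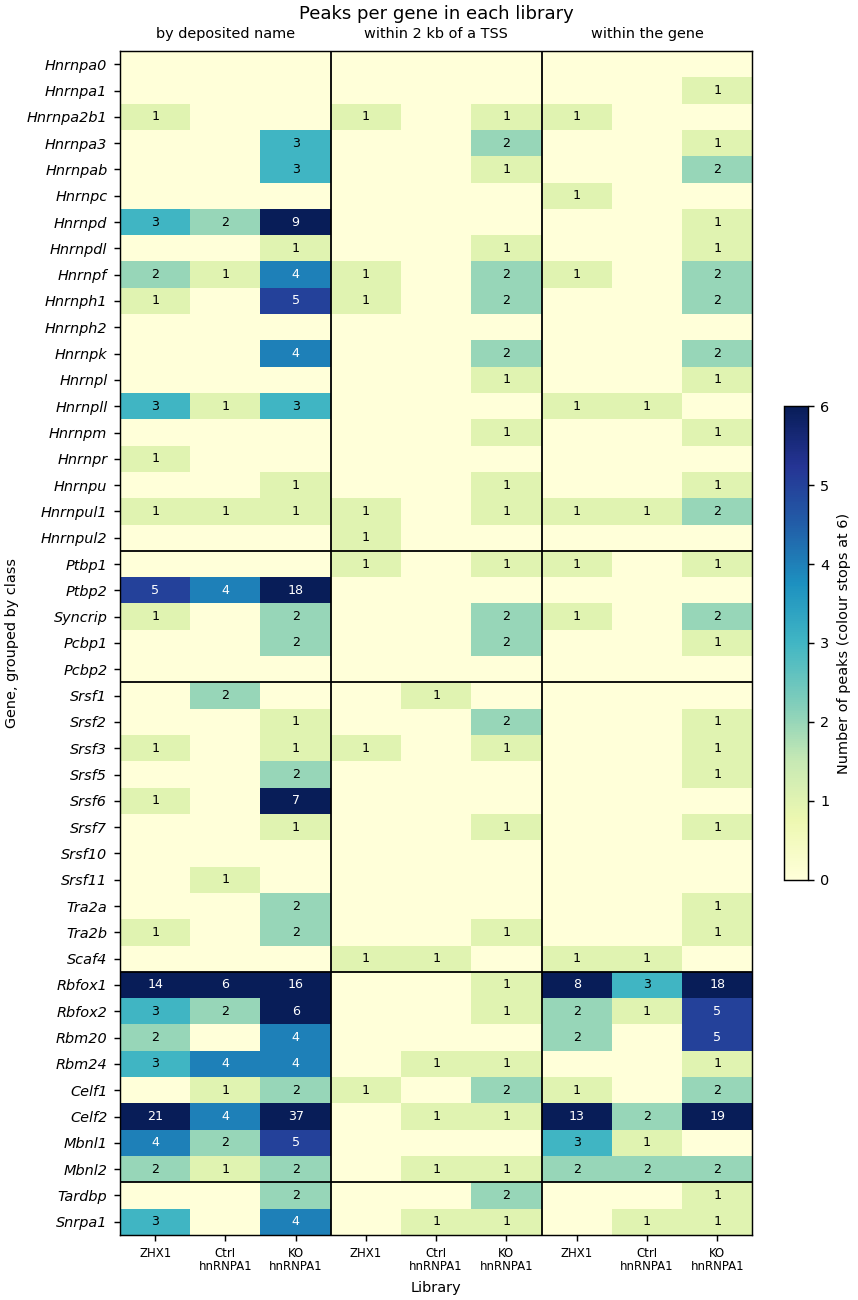
Number of peaks per gene (rows, grouped by class) in each of the 3 libraries (columns), counted by deposited name, within 2 kb of a TSS, and within the gene; an empty cell is 0 and the colour scale stops at 6. Celf2, Rbfox1 and Ptbp2 each have 4 or more named peaks in every list, and the Zhx1-KO hnRNPA1 column of the middle block is filled for 26 of 45 genes.

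Celf2, Rbfox1 and Ptbp2 were among the 4 leading genes of each list. Celf2 had 21 ZHX1 peaks, 4 control hnRNPA1 peaks and 37 Zhx1-KO hnRNPA1 peaks. Of these, 12, 2 and 19 had their centre in the gene, which is 970 kb long, and the others lay upstream, up to 768 kb from the nearest TSS. Rbfox1, which encodes a splicing regulator of neurons and muscle, had 14 ZHX1, 6 control hnRNPA1 and 16 Zhx1-KO hnRNPA1 peaks by name. Of these named peaks, 4, 3 and 5 had their centre in the gene. By position, 8, 3 and 18 peaks of the 3 lists lay within Rbfox1. The peaks within it that were not named for it carried the name 1700123O21Rik. Ptbp2, the neural form of the polypyrimidine tract binding protein, had 5, 4 and 18 peaks, and none of them had its centre in the gene. Its Zhx1-KO peaks lay 18.7 to 537 kb from the nearest TSS. The plot of the peaks along these genes shows named peaks far outside the gene in each list.

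**Figure D2:**
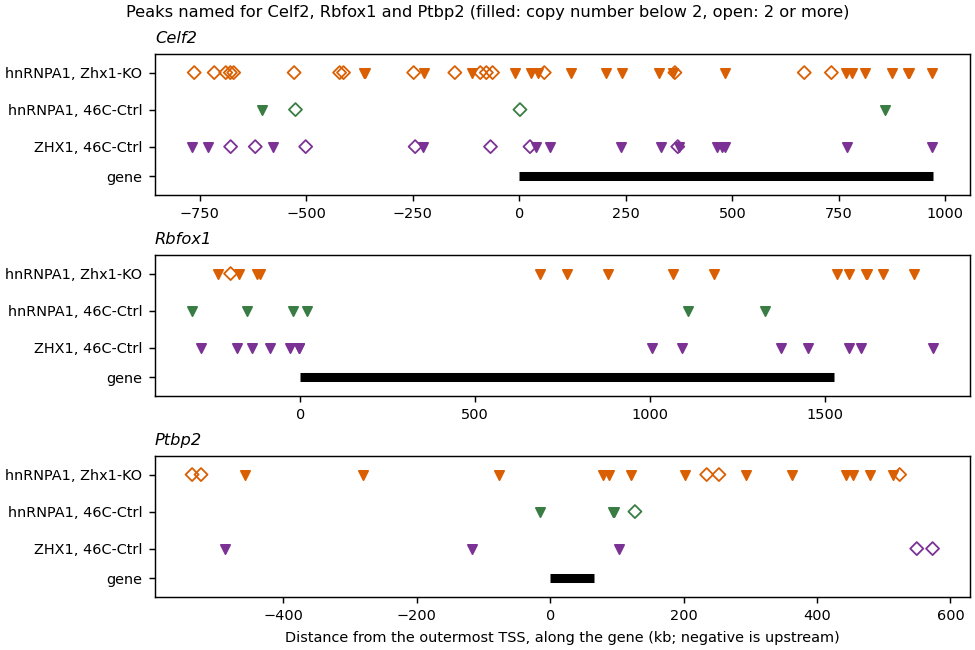
Centres of the peaks named for Celf2, Rbfox1 and Ptbp2, by distance in kb from the outermost TSS along the gene's direction, with the gene as a black bar and 1 row per list; filled marks have a median copy number below 2 and open marks 2 or more. None of the Ptbp2 peaks falls on the gene, and of the 37 Celf2 peaks of the Zhx1-KO list 17 are open.

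Among the leading genes, copy number differed. Of the Celf2 peaks, 7 of 21 ZHX1 peaks, 2 of 4 control hnRNPA1 peaks and 17 of 37 Zhx1-KO peaks lay in sequence with a median of 2 or more copies in the genome. Of the Rbfox1 peaks, 1 of the 16 in the Zhx1-KO list and none in the other lists did. Over all 45 genes the multi-copy share was 17.8% of ZHX1 peaks (interval 10.7 to 28.1), 21.9% of control hnRNPA1 peaks (11.0 to 38.8) and 23.4% of Zhx1-KO peaks (17.4 to 30.7), beside 25.2%, 24.4% and 31.4% of all peaks. The 31.4% over all Zhx1-KO peaks lay just above the interval for that list, while the ZHX1 and control hnRNPA1 values of all peaks lay inside theirs. Of the peaks named for protein-coding genes only, 23.8%, 22.8% and 29.7% were multi-copy, each inside the interval of its list.

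Hnrnpd, whose product (also called AUF1) binds AU-rich elements of unstable mRNAs, had 3 ZHX1, 2 control hnRNPA1 and 9 Zhx1-KO hnRNPA1 peaks, and 1 of the 9 lay in the gene. Srsf6, an SR protein, had 1 ZHX1 peak and 7 Zhx1-KO peaks, all upstream, the latter at 15.8 to 124 kb. Mbnl1, a splicing regulator bound by CUG repeats, had 4 ZHX1 peaks, 3 of them in the gene, 2 control hnRNPA1 peaks and 5 Zhx1-KO peaks, the last all upstream. Rbm24 had 3 ZHX1, 4 control hnRNPA1 and 4 Zhx1-KO peaks, of which a single Zhx1-KO peak lay in the gene. Over all 45 genes, 45 of 73, 23 of 32 and 96 of 154 named peaks had their centre outside the gene they were named for. The shares with their centre inside were 38.4% for ZHX1 (interval 28.1 to 49.8), 28.1% for control hnRNPA1 (15.6 to 45.4) and 37.7% for Zhx1-KO hnRNPA1 (30.4 to 45.5). Over all peaks named for protein-coding genes they were 37.7%, 36.8% and 36.2%, each inside the interval of its list. Distance differed more. The median from the nearest TSS was 48.3, 18.7 and 41.7 kb for the named peaks of the 3 lists. Over all peaks named for protein-coding genes it was 25.1, 24.7 and 27.8 kb.

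The 11 genes without a named peak in any list were Hnrnpa0, Hnrnpa1, Hnrnpc, Hnrnph2, Hnrnpl, Hnrnpm, Hnrnpul2, Ptbp1, Pcbp2, Srsf10 and Scaf4. They made up 24.4% of the 45 genes, beside 30.3% of all protein-coding genes. Several did hold peaks by position. Hnrnpc, which binds uridine tracts, had 1 ZHX1 peak in an intron named for the small nucleolar RNA gene Snord58b. Hnrnpl, which binds CA-rich RNA, and Hnrnpm each had 1 Zhx1-KO peak, named Ech1 and Pram1. Ptbp1, the widely expressed polypyrimidine tract binding protein, had 1 ZHX1 peak named Mir6910 and 1 Zhx1-KO peak named E130317F20Rik. Hnrnpa0, Hnrnph2, Pcbp2 and Srsf10 had no peak by name, in the gene or within 2 kb of a TSS in any list.

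When peaks were assigned by position in place of name, 15 of 45 genes (33.3%) had a ZHX1 peak within the gene, beside 28.1% of all protein-coding genes. For control hnRNPA1 these were 9 (20.0%), beside 20.4%, and for Zhx1-KO hnRNPA1 30 (66.7%), beside 42.3%. Gene length differs widely here, so peaks were also given per 100 kb. The 39 genes of 100 kb or less held 1.14 ZHX1, 0.505 control hnRNPA1 and 4.04 Zhx1-KO hnRNPA1 peaks per 100 kb, beside 1.26, 0.795 and 2.56 for all protein-coding genes of that length. In the 6 longer genes the densities were 0.930, 0.279 and 1.52 per 100 kb, beside 0.812, 0.535 and 1.84. The density in Zhx1-KO was thus above the background in the shorter genes and below it in the longer ones. Control hnRNPA1 was below it in both, but with only 4 peaks in the shorter genes and 9 in the longer ones. Per 100 kb, the Hnrnp genes held 4.89 Zhx1-KO peaks, the SR and SR-related genes 3.35 and the tissue-regulated genes 1.57. Median gene lengths of these classes were 13.7, 10.7 and 173 kb, and no background matched for length was taken by class. Celf2 and Rbfox1 held 19 and 18 of the 52 peaks in the tissue-regulated genes.

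A peak within 2 kb of the TSS of any annotated transcript, here called a promoter peak, was present at 9 of 45 genes (20.0%) for ZHX1, beside 12.1% of all protein-coding genes. For hnRNPA1 it was present at 6 genes (13.3%) in 46C-Ctrl cells, beside 6.77%, and at 26 genes (57.8%) in Zhx1-KO cells, beside 21.0%. Of the 26, 15 genes (33.3% of the 45) had a promoter peak in the Zhx1-KO list only, beside 15.5% of all protein-coding genes. These were Hnrnpa3, Hnrnpab, Hnrnpdl, Hnrnpk, Hnrnpl, Hnrnpm, Hnrnpu, Syncrip, Pcbp1, Srsf2, Srsf7, Tra2b, Rbfox1, Rbfox2 and Tardbp.

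By class, the 19 Hnrnp genes had a promoter peak at 5 genes for ZHX1, at none for control hnRNPA1 and at 11 for Zhx1-KO hnRNPA1 (57.9%). The 5 hnRNP relatives had it at 1, 0 and 3 genes. SR and SR-related genes had it at 2, 2 and 4 of 11 (36.4% in Zhx1-KO), and the tissue-regulated genes at 1, 3 and 6 of 8 (75.0% in Zhx1-KO). Tardbp had it in the Zhx1-KO list and Snrpa1 in both hnRNPA1 lists. The plot by class shows the Zhx1-KO share above that of all protein-coding genes in each class, lowest in the SR class. With 5 to 19 genes in a class and 1 library per group, these differences between classes have no error estimate from replicates. The classes also differ in how much sequence lies within 2 kb of a TSS. Its median was 6.36 kb for the SR class, 10.7 kb for Hnrnp genes, 11.6 kb for relatives and 23.2 kb for tissue-regulated genes. This is the same order as the Zhx1-KO shares, and its part in them was not tested.

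**Figure D3:**
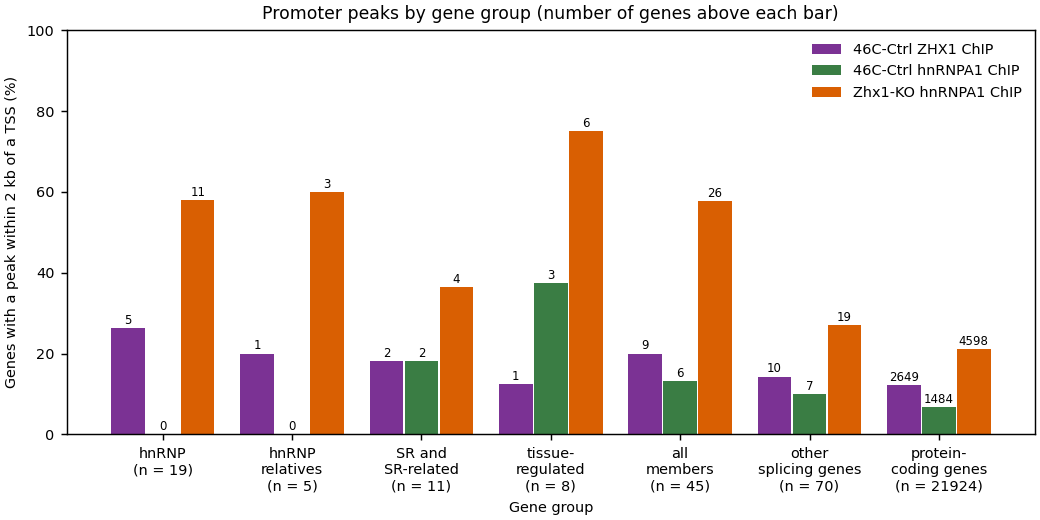
Percent of genes with a peak within 2 kb of a TSS (vertical axis, from 0) for 4 classes, all 45 genes, 70 other splicing genes and all protein-coding genes, with 1 bar per library, the number of genes with a peak above each bar and no error bars (1 library per group). The Zhx1-KO hnRNPA1 bar reaches 57.8% for the 45 genes, 27.1% for the other splicing genes and 21.0% for all protein-coding genes.

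The 70 other splicing genes, among them the Sf3a, Sf3b, Snrp and Prpf genes of the spliceosome, the Clk and Srpk kinases and further RNA-binding proteins, served as a second set. A promoter peak was present at 10 (14.3%) for ZHX1, at 7 (10.0%) for control hnRNPA1 and at 19 (27.1%) for Zhx1-KO hnRNPA1. By name, 28 (40.0%), 28 (40.0%) and 37 (52.9%) of the 70 had a peak, beside 40.5%, 31.2% and 57.7% of all protein-coding genes. Within the gene these were 22 (31.4%), 20 (28.6%) and 36 (51.4%), beside 28.1%, 20.4% and 42.3%. The promoter share of the 45 genes in Zhx1-KO was 57.8%, and that of the 70 lay nearer to the 21.0% of all genes.

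The 45 genes have more annotated TSS than most, with a median of 9 beside 3 for all protein-coding genes, and a median of 11.1 kb of promoter sequence beside 6.83 kb, so the shares were also taken within bins of TSS number. For ZHX1 the promoter share was 12.5% of genes with 1 to 4 TSS, 17.6% with 5 to 9 and 25.0% with 10 or more, beside 8.72%, 16.0% and 25.1% of all protein-coding genes in these bins. For control hnRNPA1 it was 0%, 23.5% and 10.0%, beside 4.69%, 9.08% and 15.2%. Set beside genes with as many TSS, the ZHX1 share was thus near the background in the upper 2 bins, and the control hnRNPA1 share was above it in 1 bin and below it in the others. For Zhx1-KO hnRNPA1, among genes with 1 to 4 TSS, 2 of 8 (25.0%) had a promoter peak, beside 15.9% of all protein-coding genes in that bin. With 5 to 9 TSS it was 11 of 17 (64.7%), beside 27.1%, and with 10 or more 13 of 20 (65.0%), beside 40.3%. The Zhx1-KO share was above that of all genes in each bin, and the first bin holds only 8 genes. When only the outermost TSS of each gene was used, 19 of 45 (42.2%) had a Zhx1-KO promoter peak, beside 12.4%. Taken from lists of equal length, by keeping the 14662 widest peaks of each, the shares were 11.1% for ZHX1, 13.3% for control hnRNPA1 and 24.4% for Zhx1-KO hnRNPA1, beside 8.27%, 6.77% and 7.27% of all genes. Chromosome 11 carried a Zhx1-KO promoter peak at 33.2% of its protein-coding genes, against 20.0% elsewhere. Of the 41 genes on other chromosomes, 23 (56.1%) had one.

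**Figure D4:**
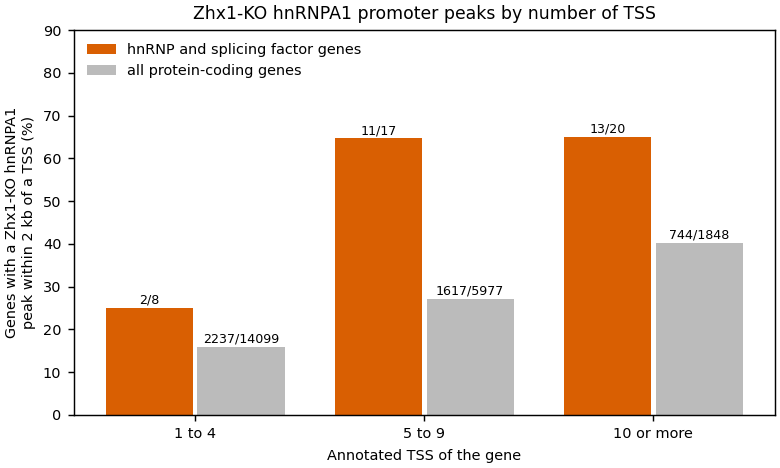
Percent of genes with a Zhx1-KO hnRNPA1 peak within 2 kb of a TSS (vertical axis, from 0) by the number of annotated TSS of the gene, for the 45 genes and for all protein-coding genes, with the counts above the bars and no error bars (1 library). The bars of the 45 genes stand at 25.0%, 64.7% and 65.0%, each above that of all genes.

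Promoter peaks of the Zhx1-KO list at Hnrnp genes lay on either side of a TSS, within the 2 kb that defines them. Hnrnpa3, a relative of hnRNPA1 in the A/B group, had peaks 555 bp upstream and 1756 bp downstream of a TSS. Hnrnpab had a peak 316 bp downstream, in coding sequence, and the peak of Hnrnpdl was centred 134 bp from a TSS, in untranslated sequence. The promoter peaks of Hnrnpa2b1, which also belongs to the A/B group, differed between lists: the ZHX1 peak was 469 bp inside a TSS, and the Zhx1-KO peak, named Cbx3, was 1065 bp upstream, toward the neighbouring gene Cbx3 for a heterochromatin protein. None of these 4 genes had a control hnRNPA1 promoter peak. The upstream Hnrnpa3 peak, chr2:75658585-75658828, is shown as an example of a single-copy promoter peak in Zhx1-KO and was chosen after its values were seen. It held neither motif.
Hnrnpa3: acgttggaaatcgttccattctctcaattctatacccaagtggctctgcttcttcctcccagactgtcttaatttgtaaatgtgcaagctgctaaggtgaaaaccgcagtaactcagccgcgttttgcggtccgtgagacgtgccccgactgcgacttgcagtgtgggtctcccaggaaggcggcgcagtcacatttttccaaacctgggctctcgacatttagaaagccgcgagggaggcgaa

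Promoter peaks of the Zhx1-KO list were also present in the other classes. Syncrip, also called hnRNP Q, had a peak in an intron, centred 390 bp upstream of a TSS inside the gene, and another 121 bp downstream of a TSS. Pcbp1, which binds C-rich RNA and has a single exon, had peaks 668 bp upstream and 845 bp downstream of a TSS. Among SR genes, Srsf2 had a peak in coding sequence, 409 bp upstream of a TSS inside the gene. It had another one 403 bp upstream of a TSS, outside the gene and named Mfsd11. The Srsf7 peak was 348 bp and the Tra2b peak 137 bp downstream of a TSS. Among tissue-regulated genes, the Rbfox1 peak was centred 1 bp and the Rbfox2 peak 231 bp from a TSS inside or at the start of the gene. Tardbp, whose product binds UG-rich RNA, had a peak centred 15 bp from a TSS and a second one 1694 bp upstream. All of these peaks were in sequence with a median copy number of 1, except the Syncrip peak at 121 bp, with 2.

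At Hnrnph1 and Srsf3, ZHX1 peaks and Zhx1-KO hnRNPA1 peaks lay side by side at the TSS. Hnrnph1, a close relative of Hnrnpf that also binds G-rich RNA, had a ZHX1 peak centred 149 bp upstream (chr11:50376728-50376955) and a Zhx1-KO peak centred 139 bp downstream (chr11:50376992-50377267), with a gap of 37 bp. The ZHX1 peak of Srsf3, the smallest SR protein, was 547 bp upstream and its Zhx1-KO peak 295 bp downstream, with a gap of 624 bp. Hnrnpul1, a relative of the chromatin-associated Hnrnpu, also had both, 13383 bp apart and at different TSS. At Ptbp1 and Celf1 the gaps were 4043 and 22219 bp. Hnrnpul2 had a ZHX1 promoter peak only, 1964 bp upstream and named Ttc9c. The ZHX1 peak at Hnrnph1, also chosen after its values were seen, held 1 CCAAT and 1 TAGGG on the plus strand.
Hnrnph1: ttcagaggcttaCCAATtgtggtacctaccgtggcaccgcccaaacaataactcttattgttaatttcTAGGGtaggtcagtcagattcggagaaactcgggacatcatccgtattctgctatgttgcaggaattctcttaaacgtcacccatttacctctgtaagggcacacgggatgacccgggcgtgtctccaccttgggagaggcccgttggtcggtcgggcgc

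Promoter peaks of hnRNPA1 in 46C-Ctrl cells were found at 6 genes: Srsf1, Scaf4, Rbm24, Celf2, Mbnl2 and Snrpa1. None of the 19 Hnrnp genes and 5 relatives had one, beside 6.77% of all protein-coding genes. By number of TSS, that background was 4.69% (1 to 4), 9.08% (5 to 9) and 15.2% (10 or more). With so few genes, no conclusion is drawn from this absence. Srsf1 encodes the SR protein classically set against hnRNPA1 in splice site choice. Its promoter peak was 818 bp upstream of the nearest TSS, and a second control hnRNPA1 peak lay 12.8 kb upstream. Srsf1 had no ZHX1 peak and no Zhx1-KO hnRNPA1 peak by name, in the gene or at the promoter, and the nearest Zhx1-KO peak was 21675 bp from the promoter peak. The Rbm24 peak (chr13:46417878-46418100) was 445 bp upstream of a TSS, while its Zhx1-KO promoter peak was 1828 bp downstream of one, with a gap of 5361 bp between them. The peaks of Celf2, Mbnl2 and Snrpa1 were 1541, 1838 and 2062 bp downstream of a TSS. Each of these 3 genes also had a Zhx1-KO promoter peak, at a gap of over 9 kb for Snrpa1 (9616 bp) and far more for Celf2, where it lay at another TSS, and for Mbnl2, where the nearest Zhx1-KO peak was 66058 bp away. Snrpa1 encodes a protein of the U2 small nuclear ribonucleoprotein, and its control peak was named Selenos.

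The control hnRNPA1 peak upstream of Rbm24 is shown whole, since it lies before a TSS of a regulator of heart splicing. It lay in sequence with a median copy number of 1 and held 1 TAGGG on the plus strand.
Rbm24: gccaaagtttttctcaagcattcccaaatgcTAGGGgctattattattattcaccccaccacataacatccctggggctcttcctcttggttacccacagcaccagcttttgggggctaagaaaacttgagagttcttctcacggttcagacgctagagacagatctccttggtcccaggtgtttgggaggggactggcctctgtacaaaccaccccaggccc

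**Figure D5:**
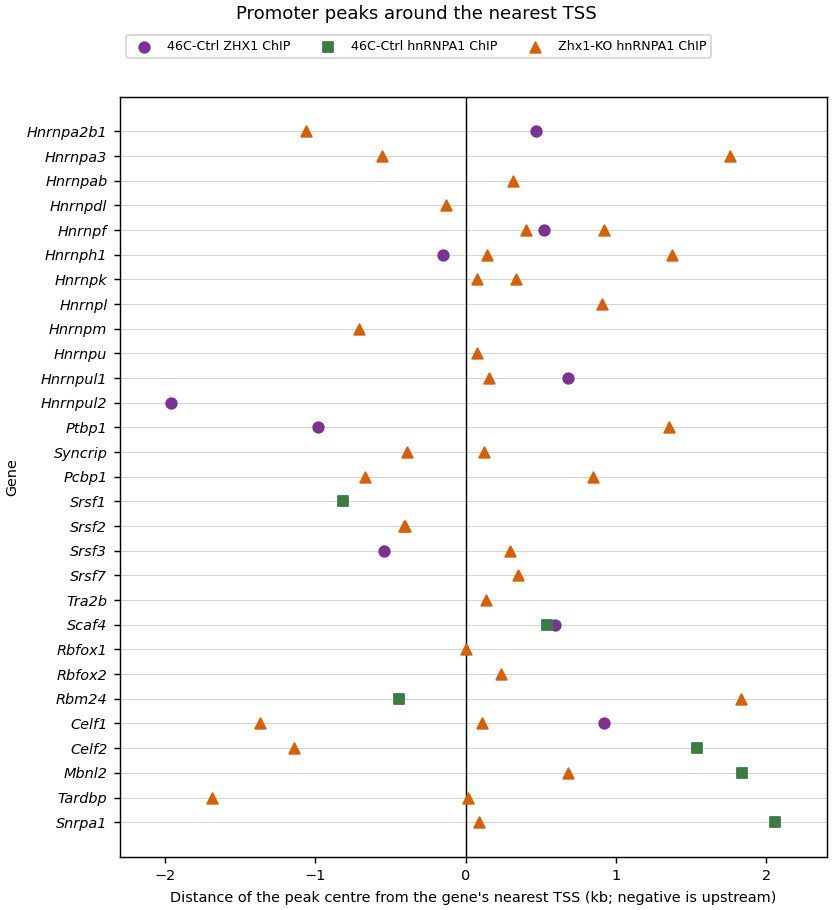
Centres of the promoter peaks of the 29 genes that have any, by signed distance in kb from the nearest TSS of the gene (0, black line; negative is upstream), with 1 mark per peak, purple circles for ZHX1, green squares for control hnRNPA1 and orange triangles for Zhx1-KO hnRNPA1. Zhx1-KO marks lie on both sides of the TSS, green squares are absent from the Hnrnp genes, and the circle and square of Scaf4 lie side by side.

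Of the peaks named for these genes, 27 of 154 in the Zhx1-KO list were promoter peaks (17.5%, interval 12.3 to 24.3), beside 10.3% of that list's peaks named for protein-coding genes. The shares were 5 of 73 (6.85%, interval 2.96 to 15.1) for ZHX1, beside 11.9%, and 4 of 32 (12.5%, interval 4.97 to 28.1) for control hnRNPA1, beside 9.95%. For genes of 100 kb or less, the Zhx1-KO share was 28.6% (interval 20.0 to 39.0), beside 12.3% of the peaks named for genes of that length. For the 6 longer genes it was 3 of 70 (4.29%, interval 1.47 to 11.9). The background lay outside the counting interval of the Zhx1-KO share over all 45 genes and over the shorter ones. It lay inside the intervals of the ZHX1 and control hnRNPA1 shares. These intervals take peaks as independent, though few genes hold most of them. The background was also not matched for number of TSS, so no conclusion is drawn from the intervals. Deposited names missed part of the promoter peaks: of 9, 6 and 35 in the 3 lists, 4, 2 and 8 carried the name of another gene.

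Motif shares of each whole list lay within the counting intervals of the shares under the named peaks. These intervals are wide for the 32 control hnRNPA1 peaks, whose shares stood furthest from those of their list. TAGGG, on either strand, was in 32.9% of the 73 ZHX1 peaks (interval 23.2 to 44.3), in 46.9% of the 32 control hnRNPA1 peaks (30.9 to 63.6) and in 28.6% of the 154 Zhx1-KO hnRNPA1 peaks (22.0 to 36.2), beside 34.5%, 35.0% and 35.3% of all peaks. CCAAT, on either strand, was in 42.5%, 50.0% and 31.2% of the named peaks, beside 36.4%, 36.3% and 38.2%, all within the counting intervals. Widths were alike, with medians of 235, 266.5 and 260 bp beside 259, 257 and 271 bp. A match to these letters does not show a bound site, and peaks differ in width, so wider peaks have more room for a match.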

How the data were processed

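ChIP-seq peak lists of 3 libraries from CP cells of the 46C line were used, with groups taken from the sample titles. Trimming by the authors was with cutadapt 1.18 and mapping with Bowtie2 2.3.5.1, against GRCm38, after which duplicates and reads without a unique position were dropped. BWA 0.7.12-r1039, whose role is not stated, and deepTools 3.3.0, for display, are further tools in the submitters' processing notes. The peak caller, the threshold and any use of inputs were not given in the sources used here. The values the authors deposited are peak positions and a gene name for each peak, called per library without pooling. They carry no signal or count.

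Peaks were counted per gene by deposited name, by overlap with the annotated gene, and by overlap with a window of 2 kb around each TSS, on both sides, of every transcript in GENCODE M21, which includes TSS inside a gene. Distances run from the centre of a peak to the nearest TSS of the gene. Peaks were shared when 1 bp or more overlapped. For copy number, each 32-base word of a peak was counted in GRCm38 and the median taken, and 2 or more was called multi-copy. Removal of reads without a unique position limits what can be called in such sequence. Scripts ran in Python 3.11.15 with matplotlib 3.10.9, numba 0.67.0, scipy 1.17.1 and numpy 2.4.6. The counting was tested on simulated data.

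The genes, their classes, the 70 other splicing genes and the alternatives were chosen with earlier results of these data known. The genes named were Hnrnpa1, Scaf4 and Srsf1, those with a control promoter peak, with overlapping peaks or without a named peak, the 5 with most peaks per list, and up to 4 Zhx1-KO promoter genes per class. Others are named where a count was listed in full. Sequences are printed for a few peaks only, and the others are not reported here.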

Additional observations from a re-analysis of the deposited data

How the results depend on the processing

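Of 60 alternative values, 34 moved by less than their tolerance (1.5 times for counts) and 26 moved further. Keeping only the widest peaks in equal number from each list changed the genes with a named peak from 20 to 13 for ZHX1 and from 30 to 17 for Zhx1-KO hnRNPA1, their named peaks from 73 to 39 and from 154 to 44, and the genes with a promoter peak from 9 to 5 and from 26 to 11, by construction, since fewer peaks entered. Peaks wider than the smallest width gave 13 genes, 40 peaks and 5 promoter genes for ZHX1. Peaks within the gene in place of the name gave 39, 13 and 81 peaks in the ZHX1, control hnRNPA1 and Zhx1-KO lists, 9 genes for control hnRNPA1, and 1 overlap of ZHX1 and control hnRNPA1 peaks (Scaf4) in place of 0. Without genes over 100 kb, 27, 17 and 84 named peaks remained, and 9 genes for control hnRNPA1. Only Hnrnp symbols gave 7, 4 and 10 genes. The outermost TSS alone gave 4 promoter genes for ZHX1, and a window of 1 kb gave 3 for control hnRNPA1. The 4 overlaps of ZHX1 and Zhx1-KO hnRNPA1 peaks became 2 when at least 50% of the shorter peak had to overlap, 8 with gaps of at most 500 bp, and 2 in single-copy sequence. Beyond what construction shows, the cause was not tested. No paired analysis was possible because each group had 1 library, and no replicate could be left out. Unknown depth and threshold limit any comparison of one list with another.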
